A study of Mus musculus with 6 samples.

Results

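Kidney mRNA was measured in control mice and in mice with induced hyperuricemia-related chronic kidney disease. The genes were 8 Toll-like receptors (Tlr1, Tlr2, Tlr3, Tlr4, Tlr6, Tlr7, Tlr8 and Tlr13), the co-receptor gene Cd14 and the adaptor gene Myd88. The 10 genes were chosen by their symbol, with earlier results of these data known. Each was found among the 55450 genes of the count table. Tlr5, Tlr9, Tlr11 and Tlr12 are not among the 10 and are treated further below. Kidneys of 6 mice were sequenced, all from male wild-type mice of the C57BL/6J strain, which were 7 weeks old when bought and were kept for 1 week before the study began. The 3 mice of the day-0 group were the control, and their labels give 20% PEG as treatment. The 3 mice of the day-21 group received adenine (0.16 g/kg) mixed with potassium oxonate (2.4 g/kg) by gavage once a day for 21 days, while their labels speak of feeding and name no PEG. Potassium oxonate blocks uricase, the enzyme by which mice break down uric acid. Adenine is a purine that feeds uric acid production and leads to crystals in renal tubules. According to the methods, each group was killed on its own day, so the day-21 mice were also older. Age and treatment cannot be told apart, and the same holds for PEG, which only the day-0 labels name.

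Toll-like receptors are membrane proteins that bind molecules of microbes and of damaged tissue and pass the signal inward through adaptor proteins. Tlr1, Tlr2, Tlr4 and Tlr6 act at the cell surface, whereas Tlr3, Tlr7, Tlr8 and Tlr13 sense nucleic acids inside endosomes, and Cd14 hands lipopolysaccharide and lipoproteins to the surface receptors. MyD88 relays the signal of these receptors, except that of Tlr3, to the NF-kB transcription factors, and in the kidney the receptors are known from macrophages and dendritic cells as well as from tubular cells.

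Of the 10 genes, 9 were higher on day 21 and none was lower. Tlr2, Tlr1 and Cd14 showed the largest differences among them, each between 8.59-fold and 9.04-fold, and Myd88 showed the smallest called difference, at 1.56-fold. Tlr4 was the exception, since its 3 values on day 21 overlapped those of day 0. The median log2 fold change of the 10 genes was 2.40, beside 0.03 over the 16592 genes tested. A gene was called where edgeR's quasi-likelihood test gave an adjusted p under 0.05 over all genes tested and the fold was over 1.5. By this rule 19.6% of the genes tested were called higher and 15.5% lower, 35.1% together, so that the 9 of 10 stand against a background in which many genes changed. The 3 values of day 21 all lay above the 3 of day 0 in 9 of the 10 genes, compared with 30.7% of all genes tested, and all lay below in none of them, compared with 26.4%. With library size alone as scaling, the median of all genes moved to 0.42 and 81.7% of the called genes were higher, compared with 55.8% under the TMM scaling used here. Of the 10 genes, 3 (Tlr1, Tlr6 and Tlr8) passed the filter on low counts only through their day-21 values, so that their presence among the genes tested already required a higher level on day 21.

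The libraries held between 10963849 and 14333311 counts, and no library repeated another, since mice of a group differed by a chi-square per gene of between 6.78 and 23.6. Values below are normalized counts (CPM), for which TMM brought the libraries to one common size, and 3 counts, the smallest level read as detected, correspond to between 0.179 and 0.309 CPM. These floors cover counting error only. Errors are SD over the 3 mice of a group, and standard errors (SE) are those of the edgeR fit. An exact permutation test, two-sided, has p = 0.1 as its smallest value with 3 mice in each group, and every one of the 10 genes reached it except Tlr4. The labels do not say more of the mice than their group. The edgeR p-values set the difference between the groups against the spread of these 6 mice within them. The kidney label held in every mouse, with the 9 tubule markers summing to between 5860 and 16900 CPM.

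**Figure D1:**
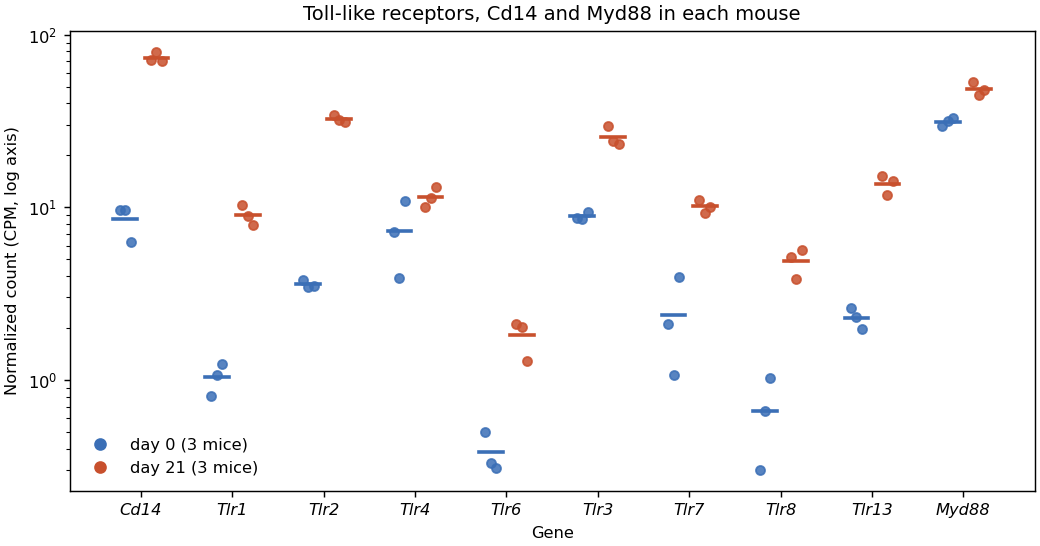
Normalized counts of the 8 Toll-like receptor genes, Cd14 and Myd88 in each mouse, on a log axis in CPM. Points are mice (3 on day 0, 3 on day 21) and short lines are group means. Tlr4 is the single gene whose groups overlap, with a day-0 mouse at 10.9 CPM above a day-21 mouse at 10 CPM.

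Cd14 encodes a protein rich in leucine repeats that is anchored to the membrane of monocytes and macrophages and also shed in soluble form. The gene (ENSMUSG00000051439.7) lies on the minus strand at chr18:36725067-36726798 of GRCm38. It measured 9.63, 9.64 and 6.29 CPM in the mice of day 0 and 71.5, 79.2 and 70.2 CPM in those of day 21. No day-0 mouse came near a day-21 mouse, and mouse 3 of day 0 was the lowest. The mean went from 8.52 ± 1.93 to 73.6 ± 4.85 CPM (SD, n = 3), a log2 fold change of 3.10 (SE 0.17, 95% interval 2.73 to 3.48, adjusted p = 1.2e-06). Of all genes tested, 2.27% had a larger log2 fold change.

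Tlr4 is the receptor to which CD14 hands lipopolysaccharide, and its gene (ENSMUSG00000039005.13) lies on the plus strand at chr4:66827584-66930284. Its level was 7.22, 3.87 and 10.9 CPM on day 0 and 10, 11.3 and 13.1 CPM on day 21. The day-0 mice were widely spread, and the highest of them exceeded the lowest mouse of day 21. The means were 7.34 ± 3.53 and 11.5 ± 1.54 CPM. The log2 fold change of 0.66 (SE 0.31) had an interval from -0.03 to 1.35 and an adjusted p of 0.11, and the exact permutation test gave p = 0.2. The interval takes in no difference as well as differences well past the fold limit. Without mouse 3 of day 0, the value was 1.05 with an adjusted p of 0.011, and Tlr4 was then called, whereas without mouse 2 of day 0 it was 0.34 with an adjusted p of 0.28. It was also called with limma-voom (0.81, adjusted p = 0.049), with no filter on low counts (0.67, adjusted p = 0.011) and with library size alone as scaling (1.05, adjusted p = 0.019).

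The ratio of Cd14 to Tlr4 within each mouse put the co-receptor beside its receptor. On the log2 scale it was 0.41, 1.28 and -0.78 on day 0 and 2.81, 2.79 and 2.41 on day 21. The groups did not overlap, and the mean log2 ratio differed by 2.37, or 5.16-fold (exact permutation p = 0.1, adjusted p = 0.133 over the 4 ratios computed). Ly96, which encodes the MD-2 protein that binds lipopolysaccharide together with Tlr4, measured 1.95 CPM on day 0 and 3.12 CPM on day 21, a log2 fold change of 0.68 with an adjusted p of 0.10 that was not called. Lbp, the serum protein that delivers lipopolysaccharide to CD14, rose from 6.10 to 36.1 CPM (log2 fold change 2.57, adjusted p = 2.3e-06).

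Tlr2 recognises lipoproteins as a pair with Tlr1 or Tlr6, and its gene (ENSMUSG00000027995.10) lies on the minus strand at chr3:83836272-83841767. It measured 3.81, 3.46 and 3.50 CPM on day 0 and 34.2, 32.2 and 31.1 CPM on day 21. The mice of each group lay close together, and the groups were far apart. Its mean went from 3.59 ± 0.190 to 32.5 ± 1.57 CPM, a log2 fold change of 3.18 (SE 0.15, interval 2.84 to 3.51, adjusted p = 7.4e-07). Relative to Tlr4, the log2 ratio was -0.90, -0.16 and -1.60 on day 0 and 1.75, 1.49 and 1.24 on day 21. By normalized counts, which do not correct for gene length, Tlr2 was thus the lower of both genes in every mouse of day 0. It was the higher in every mouse of day 21, and the mean log2 ratio differed by 2.38 (exact permutation p = 0.1, adjusted p = 0.133). In CPM per kilobase of exon, both genes overlapped on day 0 (Tlr2 1.15 to 1.26, Tlr4 0.697 to 1.97).

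Tlr1 (ENSMUSG00000044827.10) lies on the minus strand at chr5:64924679-64933563, next to Tlr6. It had 8, 13 and 12 counts on day 0 and 145, 149 and 128 counts on day 21, which correspond to 0.802, 1.07 and 1.24 CPM and to 10.3, 8.89 and 7.84 CPM. All 3 mice of day 21 lay far above those of day 0. The mean went from 1.04 ± 0.219 to 8.99 ± 1.21 CPM, with a log2 fold change of 3.10 (SE 0.28, interval 2.48 to 3.72, adjusted p = 1.5e-05).

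Tlr6 (ENSMUSG00000051498.6), at chr5:64952031-64960097 on the same strand, was the lowest of the 8 receptors. It had 5, 4 and 3 counts on day 0 and 30, 34 and 21 counts on day 21, or 0.501, 0.330 and 0.309 CPM against 2.12, 2.03 and 1.29 CPM. The groups were apart, although the day-0 mice lay at or just above the floor of 3 counts. The log2 fold change was 2.23 (SE 0.46, interval 1.20 to 3.26, adjusted p = 0.0029). The log2 ratio of Tlr1 to Tlr6 was 0.55, 1.35 and 1.59 on day 0 and 2.19, 2.05 and 2.47 on day 21. By this ratio the partners of Tlr2 were further apart on day 21 by 1.08 (exact permutation p = 0.1, adjusted p = 0.133). The ratio carried a prior count of 2, which lowers it at the few counts of day 0, so part of the 1.08 comes from the prior count. The fitted log2 fold changes were 3.10 for Tlr1 and 2.23 for Tlr6.

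Tlr1 and Tlr6 share sequence, which bears on how their reads can be told apart. Of the 50-base words of the longest transcript, 454 are common to both genes, 15.3% of those of Tlr1 and 12.5% of those of Tlr6. The longest identical run is 229 bases of coding sequence on the minus strand, in exon 4 of 4 of Tlr1 (chr5:64925537-64925765) and in exon 2 of 2 of Tlr6 (chr5:64953828-64954056, GRCm38). It is shown because a read that falls wholly within it cannot be assigned to one of the genes by sequence.
Tlr1 and Tlr6, shared run: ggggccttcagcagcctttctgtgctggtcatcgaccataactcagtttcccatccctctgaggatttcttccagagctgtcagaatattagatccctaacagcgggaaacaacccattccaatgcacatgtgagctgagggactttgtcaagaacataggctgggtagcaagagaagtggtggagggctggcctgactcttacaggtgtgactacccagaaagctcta
How the counting treated such reads is not given in the sources used here. Summed over both genes, the level went from 1.42 ± 0.122 to 10.8 ± 1.63 CPM, 7.63-fold, a value that does not depend on the division of those reads between the pair.

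Among the receptors of endosomes, Tlr3 binds double-stranded RNA and signals through the adaptor TRIF instead of MyD88. Its gene (ENSMUSG00000031639.12) lies on the minus strand at chr8:45395665-45411080. It measured 8.62, 8.57 and 9.38 CPM on day 0 and 29.5, 24.3 and 23.1 CPM on day 21. The day-0 mice were nearly equal, and each day-21 mouse was above them. The mean went from 8.86 ± 0.451 to 25.6 ± 3.40 CPM, a log2 fold change of 1.53 (SE 0.15, interval 1.19 to 1.87, adjusted p = 3.0e-05). Of its exon bases, 381 (7.32%) lie in Gm45542, an antisense gene with 0, 1 and 4 counts on day 0 and 17, 13 and 13 counts on day 21, and without a known strand setting the reads of this stretch cannot be told apart.

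Tlr7 and Tlr8 bind single-stranded RNA and are neighbours on the X chromosome, Tlr7 (ENSMUSG00000044583.13) at chrX:167304929-167330558 and Tlr8 (ENSMUSG00000040522.5) at chrX:167242696-167264329, both on the minus strand. Tlr7 measured 2.11, 1.07 and 3.92 CPM on day 0 and 11.0, 9.31 and 10 CPM on day 21. The day-0 mice were spread while the day-21 mice were close together, and the groups did not overlap. The mean went from 2.36 ± 1.44 to 10.1 ± 0.827 CPM (log2 fold change 2.12, SE 0.36, interval 1.31 to 2.93, adjusted p = 9.4e-04). Tlr8 had 3, 8 and 10 counts on day 0 and 73, 64 and 92 counts on day 21, or 0.301, 0.659 and 1.03 CPM against 5.16, 3.82 and 5.64 CPM. One day-0 mouse was at the floor of 3 counts, and no day-0 mouse came near those of day 21. The log2 fold change of Tlr8 was 2.86 (SE 0.41, interval 1.95 to 3.78, adjusted p = 3.0e-04). The log2 ratio of Tlr7 to Tlr8 was 1.56 ± 0.88 on day 0 and 1.04 ± 0.22 on day 21, groups that overlapped (exact permutation p = 0.4).

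Tlr13 binds bacterial ribosomal RNA in mice, and its gene (ENSMUSG00000033777.4) lies on the plus strand at chrX:106143204-106160493. It measured 2.61, 2.31 and 1.96 CPM on day 0 and 15.1, 11.7 and 14.2 CPM on day 21. The groups were well apart in every mouse. On average it went from 2.29 ± 0.325 to 13.7 ± 1.75 CPM, a log2 fold change of 2.57 (SE 0.22, interval 2.08 to 3.06, adjusted p = 1.2e-05).

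Myd88 (ENSMUSG00000032508.8), the adaptor gene, lies on the minus strand at chr9:119335934-119341411. It measured 29.5, 31.4 and 32.9 CPM on day 0 and 53.1, 44.9 and 48.1 CPM on day 21. The mice of day 21 were all above those of day 0, by a small margin next to that of the receptors that were called. The group means were 31.3 ± 1.70 and 48.7 ± 4.12 CPM, a log2 fold change of 0.64 (SE 0.12, interval 0.38 to 0.90, adjusted p = 0.0013), which is 1.56-fold and just past the fold limit. Without mouse 1 of day 0 the log2 fold change was 0.58, and without mouse 1 of day 21 it was 0.57, both under the limit. Of its exon bases, 290 (11.3%) lie in Acaa1a, a peroxisomal thiolase gene on the opposite strand, which measured 137 CPM on day 0 and 110 CPM on day 21 (log2 fold change -0.31, not called). Reads of this stretch cannot be told apart either, and Acaa1a was the more abundant gene in every mouse.

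**Figure D2:**
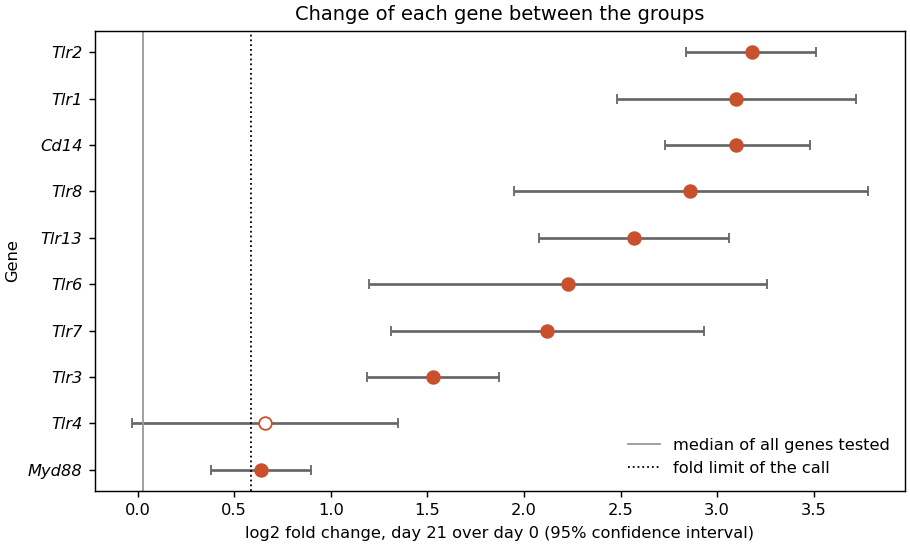
Log2 fold change of each gene from day 0 to day 21 with its 95% confidence interval from the edgeR fit (n = 3 mice per group). Filled points were called, and the open point (Tlr4) was not. The grey line is the median of all genes tested (0.03) and the dotted line is the fold limit of the call, which the interval of Myd88 (0.38 to 0.90) crosses.

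The order of the genes by abundance, in CPM per kilobase of annotated exon, changed between the groups. On day 0, Myd88 was the most abundant at 12.1 ± 0.661, followed by Cd14 at 4.92 ± 1.12. These overlapped neither each other nor any receptor among the 10 genes. Below them came Tlr3 (1.70), Tlr4 (1.32) and Tlr2 (1.19), then Tlr7 (0.579) and Tlr13 (0.532), and last Tlr1 (0.310), Tlr8 (0.185) and Tlr6 (0.102). Neighbours within each of those 3 sets did not differ beyond the spread of the mice. On day 21, Cd14 came first at 42.5 ± 2.80 CPM per kilobase, ahead of Myd88 at 18.9 ± 1.60 and Tlr2 at 10.8 ± 0.521. Tlr3 (4.92) was next, and Tlr13 (3.17), Tlr1 (2.69), Tlr7 (2.47) and Tlr4 (2.07) followed as neighbours whose values overlapped. Tlr8 (1.36) and Tlr6 (0.486) were again the lowest of the 10 genes. Cd14 and Myd88 thus changed places. The place of Tlr4 on day 21 depends on the exons counted, since with those of the longest transcript it was at 2.82, above Tlr7 at 2.59, and Tlr3 was at 5.81.

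To see how the receptors divided their mRNA, the level per kilobase of all 12 Toll-like receptor genes in the table was summed, with Tlr5, Tlr9, Tlr11 and Tlr12 added. The sum was 10.1, 13.6 and 14.7 CPM per kilobase on day 0 and 38.3, 33.4 and 33.7 on day 21, 2.75-fold higher in the mean. Tlr2 made up 12.5%, 8.46% and 7.92% of the sum on day 0 and 29.6%, 32.0% and 30.6% on day 21. The shares of Tlr1, Tlr7, Tlr8 and Tlr13 were also higher in every mouse of day 21, with Tlr1 at 2.42 ± 0.0882% on day 0 and 7.63 ± 0.590% on day 21. Tlr12, which senses profilin of protozoan parasites, had by far the largest share on day 0, 46.9 ± 8.75%, and 13.2 ± 0.447% on day 21. Its own level was 19.4 CPM on day 0 and 14.7 CPM on day 21 and was not called (log2 fold change -0.40, adjusted p = 0.18). The shares of Tlr3 (13.6% and 14.0%), Tlr4 (10.5% and 5.94%) and Tlr6 (0.849% and 1.38%) overlapped between the groups. Shares sum to a whole, so that one share can fall with no change in that gene, and for the shares that did not overlap the exact permutation p was 0.1, adjusted to 0.2 over the 12 genes.

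**Figure D3:**
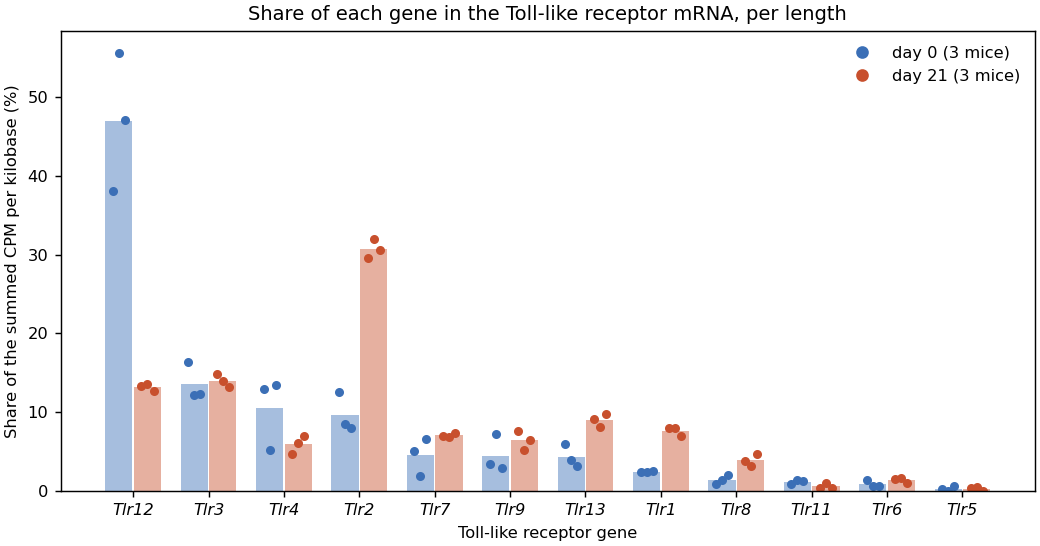
Share of each Toll-like receptor gene in the summed CPM per kilobase of the 12 genes, in percent. Bars are means over 3 mice and points are single mice. Tlr12 holds 46.9% on day 0 and 13.2% on day 21, and Tlr2 holds 9.63% and 30.7%.

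Markers of macrophages and monocytes moved with these genes. Of the 14 markers, 12 were higher on day 21, from Csf1r (log2 fold change 0.83) to Fcgr1 (3.75), with a median of 3.0 for the list. Over all genes tested, 19.6% were called higher and 15.5% lower. Aif1, counted among the 12, passed the filter on low counts only through its day-21 values. Mertk, a receptor for dying cells, was lower (-1.06), and Ly6c2, a monocyte marker, was not called (1.09, adjusted p = 0.086). Their sum ran from 263 to 317 CPM on day 0 and from 1240 to 1550 CPM on day 21, 4.82-fold higher, and none of them was at 0 in any group. In whole tissue, more cells of a type and more RNA per cell cannot be told apart, and the part of the markers in the changes of the receptors was not tested.

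The level of each gene was set against the marker sum within each mouse. Tlr3, Tlr4 and Myd88 were lower relative to the markers on day 21, by -0.76, -1.52 and -1.63 on the log2 scale, with no overlap of the groups. Tlr2, Cd14 and Tlr1 were higher relative to the sum, by 0.86, 0.84 and 0.68, also with no overlap, and for Tlr6 (-0.40), Tlr7 (-0.08), Tlr8 (0.44) and Tlr13 (0.23) the groups overlapped. The exact permutation p was 0.1 for the 6 genes without overlap, the smallest it can give, and 0.167 after adjustment over the 10 genes.

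How the markers were weighted decided the values of Tlr2, Cd14 and Tlr1. Csf1r and Mertk, which rose least and fell, made up 49.7% of the marker sum on day 0 and 11.8% on day 21. With both left out, a choice made after seeing the data, the values were 0.04 for Tlr2, 0.03 for Cd14 and -0.13 for Tlr1, and the groups overlapped in all 3 genes. With the mean log2 CPM of the 14 markers in place of their sum, also chosen after seeing the data, the values were 0.50 for Tlr2, with no overlap, and 0.49 for Cd14 and 0.33 for Tlr1, with overlap. Tlr3 (-1.57 and -1.12), Tlr4 (-2.34 and -1.88) and Myd88 (-2.45 and -1.99) were lower with no overlap under both choices. Tlr6 was also lower (-1.21 and -0.75). The log2 CPM of each gene carried a prior count of 2, which raises low counts most. As Tlr6 had 5, 4 and 3 counts on day 0, its lack of overlap under these choices may come from the prior count. With the 3 C1q chains left out instead, the values were 1.20 for Tlr2, 1.19 for Cd14, 1.03 for Tlr1, 0.58 for Tlr13, -0.41 for Tlr3 and -1.29 for Myd88.

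**Figure D4:**
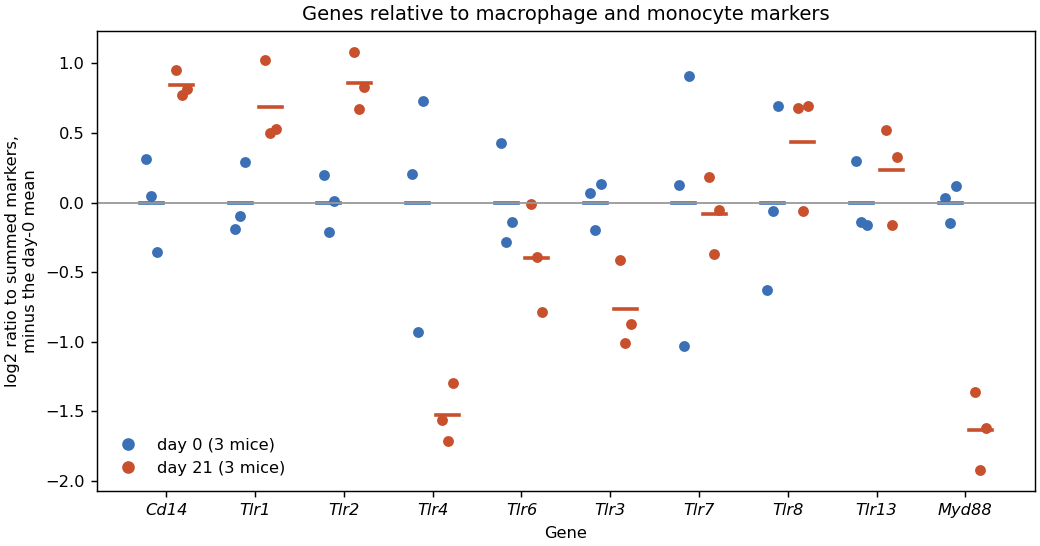
Log2 ratio of each gene to the summed CPM of the 14 macrophage and monocyte markers, minus the mean of that ratio on day 0. Points are mice and short lines are group means. Tlr3, Tlr4 and Myd88 lie below their day-0 mice on day 21. Tlr2, Cd14 and Tlr1 lie above theirs, a difference that was between -0.13 and 0.04 with Csf1r and Mertk left out of the sum.

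Other cell types were followed by marker lists as well, beside 19.6% of all genes tested called higher and 15.5% called lower. Of 7 dendritic cell markers tested, Itgax (2.83) and Ccr7 (2.53) were higher, while 3 of the 7, Ccr7 among them, passed the filter only through day 21, and the summed level of the list ran from 18.5 to 21.8 CPM on day 0 and from 39.1 to 55.2 CPM on day 21. Of the 8 B and T cell markers, 5 were tested and all 5 (the chains Cd3d, Cd3e and Cd3g, with Cd4 and Cd8a) were higher, with sums of 3.81 to 9.64 and 22.7 to 24.9 CPM, but 4 of the 5 passed the filter only through day 21. The neutrophil list summed to between 16.0 and 26.0 CPM on day 0 and between 11.3 and 12.4 CPM on day 21, with S100a8 and S100a9 lower, Csf3r higher, and Mpo and Elane at 0 in all 6 mice. Of 9 tubule markers 8 were lower and none higher, and the sum ran from 14700 to 16900 CPM on day 0 and from 5860 to 6110 CPM on day 21. Of 7 fibroblast and pericyte markers 6 were higher (258 to 312 and 589 to 920 CPM in sum). Among these 6, the values of Pdgfra, Dcn and Acta2 overlapped between the groups. Of 7 endothelial markers Kdr was lower and none higher (528 to 611 and 306 to 500 CPM), and of 5 podocyte markers 3 were lower (400 to 640 and 308 to 359 CPM). The part of these cells in the changes of the receptors was not tested.

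Genes that work beside the receptors were taken as lists, beside 19.6% of all genes tested called higher and 15.5% called lower. Of 13 other receptors and partner proteins, 11 had enough counts, 5 were higher and 1 was lower, with a median log2 fold change of 0.68. Unc93b1, the chaperone that brings nucleic acid sensing receptors to endosomes, rose from 18.0 to 108 CPM (log2 fold change 2.59, adjusted p = 1.1e-06). Ly86 (3.02) and Cd180 (2.19), which form a receptor complex related to Tlr4 and MD-2, were both higher, as was Tlr9 (1.93), the receptor for unmethylated DNA. Cd36, a fatty acid transporter that also assists Tlr2, was lower (-1.38, adjusted p = 0.0087). Hsp90b1 (-0.08) and Cnpy3 (0.21), which fold the receptors in the endoplasmic reticulum, and Lman1 (-0.31) were not called. Tlr5 and Tlr11 had too few counts to be tested.

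Most signalling genes below the receptors were not called. Of 27 adaptors, kinases and transcription factors, 26 were tested, 5 were higher, 1 was lower and 20 were not called, with a median log2 fold change of 0.14. The share called higher was close to that of all genes tested (19.6%). Irf7, the transcription factor of the interferon response downstream of Tlr7, went from 18.4 to 340 CPM (log2 fold change 4.21, adjusted p = 5.3e-07). Ikbke (2.27), Nfkb1 (0.91) and Rela (0.64) were higher, and Chuk, which encodes the kinase IKK-alpha, was lower (-1.12, adjusted p = 6.7e-05). Ticam2, the bridging adaptor of Tlr4, had counts of 3, 1 and 2 on day 0, compared with counts of 28, 36 and 27 on day 21. It is among the 5 called higher but passed the filter on low counts only through day 21. The adaptors Tirap (0.08) and Ticam1 (-0.17), and Irak4 (0.19), Irak1 (-0.31), Traf6 (-0.29) and Map3k7 (-0.06), which relay the signal from Myd88, were not called. With library size alone as scaling, 12 of the signalling genes were called in either direction, compared with 6 here.

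Of 13 inhibitors of the pathway, all tested, 7 were higher and 1 was lower, with a median log2 fold change of 0.82. The shares over all genes tested were 19.6% higher and 15.5% lower. Pik3ap1 (3.16), an adaptor that links the receptors to phosphoinositide kinase, Nfkbie (2.39), which holds NF-kB in the cytoplasm, Dok3 (1.79), Tnfaip3 (1.65), the ubiquitin-editing enzyme A20, Irak3 (1.14) and Tnip1 (0.82) were higher. Il1rl1, the receptor of interleukin-33, had 3 counts in each mouse of day 0 and 24, 66 and 45 counts on day 21. It is counted among the 7 but passed the filter on low counts only through day 21. Sigirr, a receptor that restrains signalling by Toll-like and interleukin-1 receptors, was lower (-0.72, adjusted p = 3.2e-04). Tollip (-0.50, adjusted p = 0.016) stayed within the fold limit, and Nfkbia (0.40) was not called.

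Genes known to respond to the receptors through NF-kB or interferon factors were higher where they could be tested. Of 20 such genes, 14 were tested and all 14 were called higher, but 9 of the 14 entered the test only through their day-21 values. Over all genes tested, 19.6% were called higher. The median log2 fold change of the tested genes was 2.98, or 2.52 with genes at the floor on day 0 set to their lower bound. Lcn2, an iron-binding protein of injured tubules and myeloid cells, went from 6.58 to 510 CPM (log2 fold change 6.27, adjusted p = 4.7e-08). The chemokine Ccl2 rose from 0.852 to 14.2 CPM (4.08), Cxcl1 from 2.17 to 28.1 CPM (3.73) and Cxcl10 from 4.31 to 41.1 CPM (3.26). Tnf had no count on day 0 and 27, 29 and 18 counts on day 21, at least 5.53-fold higher against a floor of 3 counts in each library of day 0. Cxcl2 had 5, 0 and 0 counts on day 0, while on day 21 it had 101, 99 and 82. Il1b rose from 2.33 to 5.75 CPM (1.29, adjusted p = 0.012). Il6, with 1, 0 and 0 counts in the day-0 mice and 17, 6 and 10 counts in the day-21 mice, could not be tested, and Ifnb1 had none in any mouse. Il12b, Il10, Saa3 and Acod1 also had too few counts.

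Proteins of damaged tissue and matrix that are described as ligands of Tlr2 or Tlr4 moved in both directions. Of 17 genes tested, 8 were higher and 5 were lower, with a median log2 fold change of 0.76. The shares over all genes tested were 19.6% higher and 15.5% lower. The matrix genes Fn1 (3.02), Tnc (2.63), Bgn (1.97) and Dcn (1.20) and the fibrinogen chains Fgb (3.58), Fgg (3.54) and Fga (2.06) were higher, although the values of Dcn overlapped between the groups. Sftpd, a collectin, had 0, 5 and 0 counts on day 0 and 75, 116 and 90 counts on day 21. It is among the 8 higher genes but passed the filter on low counts only through day 21. The alarmin genes S100a8 (-1.97) and S100a9 (-1.99) and the heat shock genes Hspa1a (-1.73), Hspa1b (-1.47) and Hspd1 (-1.25) were lower. Hmgb1 (0.35), a nuclear protein released from dying cells, Vcan (0.76), Hsp90b1 and Umod (-0.45) were not called.

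**Figure D5:**
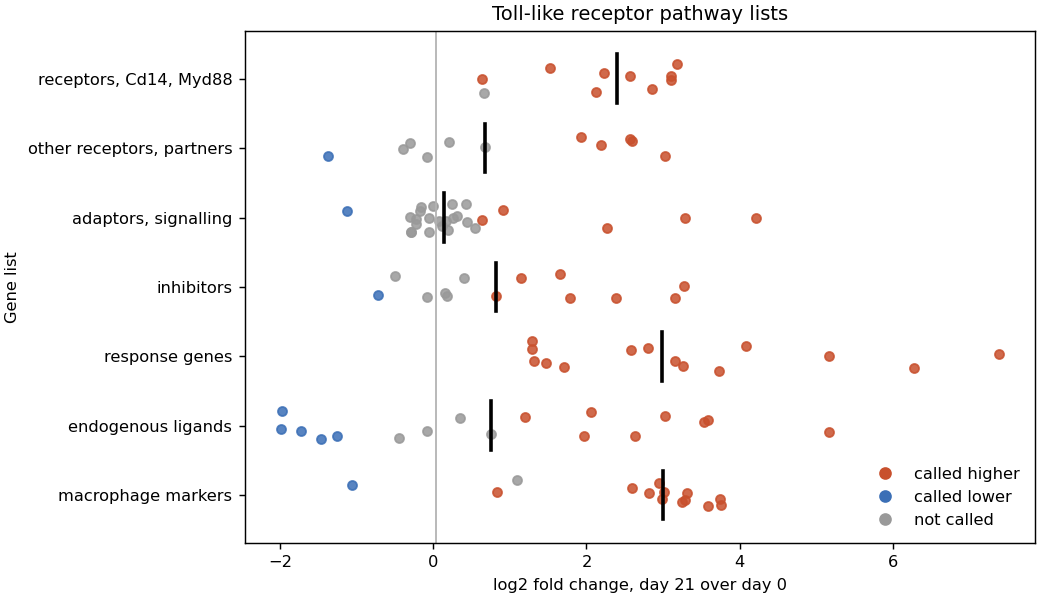
Log2 fold change from day 0 to day 21 of each tested gene in 7 lists, with the call shown by colour and the list median by a black line. The grey line is the median of all genes tested (0.03). The signalling genes cluster around it (median 0.14), while the receptors, the response genes and the macrophage markers lie mostly to its right (medians 2.40, 2.98 and 3.0). Of the 14 response genes tested, 9 passed the filter on low counts only through day 21, as did 3 of the 10 members. The fitted value of Tnf, the point farthest right, rests on counts of 0 on day 0 and is not a measured fold.

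The upstream sequence of the genes was searched for motifs of factors that act in these cells, in the RefSeq windows (GRCm38.p6) from 250 bases before to 50 bases after each start site. Windows were at hand for 7 of the 10 genes, 9 windows in all, and Tlr4, Tlr7 and Cd14 had no entry. The motifs, searched on both strands, were the kB motif of NF-kB, the interferon element GAAANNGAAA and the core GAGGAAGT of PU.1, a factor of myeloid cells. Matches are shown in capitals with their surroundings, to show which gene held which letters, and positions are counted from the first base of the transcript as 1, with no 0.
Tlr2, kB at -172 to -163, chr3:83841761-83841790, minus strand: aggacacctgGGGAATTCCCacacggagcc
Tlr2, kB at -8 to 2, chr3:83841597-83841626, minus strand: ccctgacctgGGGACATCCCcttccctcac
Tlr3, kB at -211 to -202, chr8:45410572-45410601, minus strand: agttgtttctGGGAGTTTCCtgcttttgag
Myd88, interferon element at -40 to -31, chr9:119340039-119340068, minus strand: gagcttctcgGAAAGCGAAAgaaggagggg
Tlr6, interferon element on the other strand at -110 to -101, chr5:64959257-64959286, minus strand: ttcttttctcTTTCACTTTCtgtttgatgt
Tlr1, PU.1 core at -23 to -16, chr5:64933562-64933591, minus strand: ttaaatgttgGAGGAAGTaggagcttgaat
The kB motif was found in windows of 2 members and in 8.46% of all 32851 windows, the interferon element in 2 members and 3.44%, and the PU.1 core in 1 member and 3.20%. The 2 printed kB matches of Tlr2 were found on both strands, and the one farther from the start overlaps another match shifted by 1 base. The Tlr6 match overlaps another one starting 6 bases farther upstream, and this site lies within the Tlr6 gene of GENCODE but in none of its exons. The other Tlr6 window, at chr5:64959999-64960298, held no match. The printed stretches of Myd88, Tlr3 and the Tlr2 match nearer to the start lie within the genes as GENCODE places them and touch their exons, that of Tlr3 also an exon of Gm45542, while those of Tlr1 and the other Tlr2 match only reach into the gene at their edge. A match is a description of the letters and no measure of binding.

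The genes whose pattern over the 6 mice lay nearest to each member were found among 13134 other genes with a mean of at least 50 counts, by the Euclidean distance of log2 CPM centred on each gene's mean. Nearest to Tlr2 were Bst2 (distance 0.23), Rtp4 (0.29) and Lrrc25 (0.32), and nearest to Tlr1 were Ifi27l2a (0.26), Oas2 (0.35) and Lrrc25 (0.39). For Cd14 they were Cyp4f18 (0.29), Tmsb10 (0.35) and Gpc3 (0.41), and for Tlr13 they were Slfn2 (0.19), Efemp2 (0.21) and Cd300ld (0.33). Tlr3 was followed most closely by 1110046J04Rik (0.18), Nmi (0.19) and Apobr (0.23), and Tlr7 by Smc2 (0.25), Abca1 (0.32) and Brca1 (0.49). Tlr4 lay nearest to 2610008E11Rik (0.29), Terf1 (0.29) and Ccdc88a (0.30), and Myd88 to Accs (0.10), Ciz1 (0.13) and Gm14964 (0.13). All 6 mice fall into the 2 groups, so that likeness is mostly a like difference between the groups, and these distances are given as a description. Tlr6 and Tlr8 had too few counts to be compared in this way.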

How the data were processed

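Total RNA of 6 mouse kidneys was sequenced by the authors from TruSeq libraries as paired-end reads. The submitters' processing notes name TopHat and the mm10 genome, and the counting program, its strand setting and filters are not given in the sources used here. The authors deposited raw counts per gene for each mouse, without normalization, and all 55450 identifiers matched GENCODE M21, which supplied symbols, positions and exons (GRCm38). Library totals ran from 10963849 to 14333311 counts.

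Counts were filtered with filterByExpr (minimum count 10, minimum total 15), scaled by TMM and compared between day 21 and day 0 with edgeR's quasi-likelihood test (edgeR 4.0.16, R 4.3.3), with no replicate block. The p-values were adjusted by Benjamini-Hochberg over all 16592 genes that passed the filter. Calls needed a fold over 1.5 and an adjusted p under 0.05. Log2 CPM used a prior count of 2. Ratios were tested by two-sided exact permutation. Motifs and shared words of 50 bases were searched in Python 3.11.15. The fit was tested on simulated data. Alternatives were RLE, upper quartile or library size scaling, other filters, DESeq2 1.42.0, limma-voom (limma 3.58.1), a replicate block, other thresholds and each mouse left out. The 10 genes, the lists and the tests were chosen with earlier results of these data known. Named genes were the 10 members, called genes of each list with the 3 largest rises and falls, the 3 genes nearest in pattern to each member, and a few list genes that were chosen after their values were seen (uncalled genes given with their values). Other data types of the study were not analysed here.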

Additional observations from a re-analysis of the deposited data

How the results depend on the processing

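The log2 fold changes of the 10 genes kept their direction under every alternative run, the filter at a mean of 50 counts giving no value for Tlr6 and Tlr8, with ranges of 2.91 to 3.50 for Cd14, 3.14 to 3.57 for Tlr2, 2.94 to 3.49 for Tlr1, 1.42 to 1.92 for Tlr3, 1.74 to 2.67 for Tlr7, 2.45 to 2.96 for Tlr13, 2.10 to 2.61 for Tlr6 and 2.51 to 3.26 for Tlr8. Tlr4 ranged from 0.34 to 1.05 and was called with library size alone (1.05), no filter (0.67), limma-voom (0.81), the replicate block (0.73) and without day 0 replicate 3 (1.05). Myd88 ranged from 0.57 to 1.03 and lost its call without day 0 replicate 1, without day 21 replicate 1, and at a fold over 2. At a fold over 2 with adjusted p under 0.01, 3172 genes were called in place of 5821. Library size alone gave 12 called signalling genes in place of 6, and a filter at a mean of 50 counts left 8 called response genes in place of 14, since fewer genes were tested. With each mouse left out, the number of genes called ran from 5128 to 5920, of the 10 members from 8 to 10, of the other receptors from 6 to 7, of signalling genes from 5 to 7, of inhibitors from 8 to 9, of response genes from 11 to 13, of ligands from 12 to 14 and of macrophage markers from 13 to 14. Among the ratios to the marker sum, that of Tlr1 turned from 0.68 to -0.13 with Csf1r and Mertk left out, an alternative chosen after seeing the data. The levels per kilobase of Tlr3 and Tlr4 on day 21 were 5.81 and 2.82 with the exons of the longest transcript. Deviations of mice that share a number correlated at r of -0.019, 0.165 and 0.090, and those of other pairs at between -0.181 and 0.116. No pairing was seen in these values, but with 3 mice in each group they cannot exclude one. With the replicate block 5758 genes and all 10 members were called. Depth limits Tlr6 and Tlr8 most, with between 3 and 10 counts in each mouse on day 0. The cause of the other changes was not tested.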
